A study of Mus musculus with 6 samples.

Results

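Perivascular and border macrophages are the resident macrophages of the brain's blood vessels and coverings. They were examined here among nuclei of the pons and medulla of the mouse, where they made up 92 of 40139 kept nuclei. Nuclei were kept if they had at least 500 genes and at most 5% of their unique molecular identifiers (UMIs, the counted RNA molecules) from mitochondrially encoded genes. A macrophage was a kept nucleus with at least 3 UMIs summed over Mrc1, F13a1, Cd163, Lyve1, Ms4a7 and Pf4, from at least 2 of these 6 genes. It also had at most 1 UMI of the oligodendrocyte genes Mog and Mag together, fewer than 8 of the neuronal RNA Meg3 and at most 1 of the endothelial gene Flt1. The nuclei were thus chosen on measured values, and levels of these genes are given only as a description.

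The tissue came from male WT C57BL6/J mice in 2 groups, with 3 single-nucleus RNA-seq libraries each. CIH mice were exposed to chronic intermittent hypoxia from postnatal day 22 to 43, after weaning on day 21. In each cycle nitrogen flowed for 60 s until oxygen reached 4.5 to 5%, then compressed air restored 21% within 5 min, with 80 cycles a day over 8 h for 21 days. Normoxia mice stayed in room air over the same days. Nuclei were released from frozen brainstem, stained with Hoechst, sorted away from debris and loaded on the 10x Genomics 3' v3.1 chemistry. The number of mice per library is not in the labels, nor whether libraries came from separate animals, so the p-values measure only the spread between these libraries. Both groups were young, of a single sex, and sampled once at the end of exposure.

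Border macrophages lie in the space around vessels, in the meninges and in the choroid plexus, while microglia lie among the neurons. They arise from early precursors shared with microglia, and those of some borders are later joined by cells from blood monocytes. They take up material from blood and cerebrospinal fluid through scavenger receptors, break it down in lysosomes, and some of them present antigen on MHC class II. Perivascular macrophages have been studied in rodents as regulators of blood flow and as a source of oxidants in hypertension.

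The 6 libraries held 43836 barcodes, 4607 to 12032 each, with 26733243 to 46754345 UMIs per library. Microglia were the reference class, defined in the same way as at least 3 UMIs from at least 2 of P2ry12, Siglech, Tmem119, Sall1 and Gpr34 with the same limits on other cells, leaving out macrophages, and they numbered 998. Oligodendrocytes, kept nuclei with at least 3 UMIs of Mog and Mag, numbered 9887 and give the level of myeloid genes in nuclei of another class. How much of that level was free RNA was not tested. Libraries CIH 1 and normoxia 2 shared 1563 barcodes, while the other pairs of libraries shared 3 to 38. The shared barcodes had a median of 7872 UMIs in CIH 1 and 984 in normoxia 2, and their log UMI totals correlated at r = 0.969 over those barcodes. None of these was a macrophage in either library, and 3 were microglia in normoxia 2. A single macrophage barcode recurred in another library, where it was no macrophage.

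The marker genes of the rule were unevenly spread over the nuclei. Mrc1, the mannose receptor, was found in 87 of 92 macrophages, and F13a1, the A subunit of coagulation factor XIII, in 86. Cd163, the receptor for haemoglobin bound to haptoglobin, was found in 51 macrophages, Ms4a7, a membrane protein of macrophages, in 33, the chemokine gene Pf4 in 28 and Lyve1, a hyaluronan receptor, in 16. Among the 998 microglia the same genes were found in 5, 2, 0, 2, 0 and 0 nuclei in this order, and among the 9887 oligodendrocytes in 6 to 26. Median depth was 1369.5 UMIs in macrophages, 1573 in microglia and 2771 in oligodendrocytes. Only 1 macrophage held all 6 genes, 22 held 2, 35 held 3, 24 held 4 and 10 held 5. Markers of lymphocytes (16 genes) were at 0 in all macrophages, and so were 9 of 13 monocyte and neutrophil genes and 7 of 11 dendritic cell genes. Among those with UMIs, the dendritic cell gene Zbtb46 was higher in macrophages than in microglia (log2 difference 2.33 in the comparison below). Csf3r of the monocyte and neutrophil list was lower (-2.07), and Ccr2 of that list was found in 4 macrophages. The label of the rule was kept, and it does not tell nuclei of vessels from those of meninges or choroid plexus.

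Levels of the 3 most often found markers are given in counts per 1000000 UMIs of the scaled library size (CPM). F13a1 had 4534, 4734 and 4400.1 CPM in CIH macrophages, against 3498, 2319 and 3827 CPM in normoxia macrophages. Mrc1 had 2566, 2692 and 2860.1 CPM in CIH macrophages, against 1695, 2584 and 3528 CPM in normoxia macrophages. Cd163 had 776, 882 and 935 CPM in CIH macrophages, against 984, 331 and 832 CPM in normoxia macrophages. Of these, F13a1 was higher in every CIH library than in every normoxia library, and Mrc1 and Cd163 overlapped between groups. These genes chose the nuclei and were not tested. Such sums cannot tell fewer nuclei carrying an RNA from less of it per nucleus.

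Near the threshold, 8 macrophages had a marker sum of 3 or 4 and 84 had 5 or more, with a lowest sum of 3, a median of 10.5 and a highest of 34. Just outside, 6 nuclei had a sum of 2 from 2 genes. Dab2, an endocytic adaptor that the rule did not use, stood at 984 CPM in the 8 nuclei just inside and 218 CPM in the 6 just outside, pooled over the nuclei (9 and 2 UMIs). Colec12 and Stab1 ran the other way, with 109 and 219 CPM just inside and 327 and 544 CPM just outside, from 1 to 5 UMIs each. A further 13 nuclei reached the sum with a single marker gene and had 499 CPM of Dab2 and 3492 CPM of Arhgap15. Another 57 nuclei reached it but passed a limit on other cells, most often Meg3 (39) or Mog and Mag (36), and their median depth was 7718 UMIs.

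The share of macrophages did not separate CIH from normoxia. CIH libraries held 10, 10 and 26 macrophages, against 12, 8 and 26 in normoxia libraries, 46 in each group. They made up 0.230, 0.225 and 0.244% of kept nuclei in CIH libraries, against 0.255, 0.121 and 0.277% in normoxia libraries. The exact 95% binomial intervals ran from 0.108 to 0.422% over the CIH libraries and from 0.0522 to 0.446% over the normoxia libraries. The mean share was 0.233 ± 0.0101% in CIH and 0.218 ± 0.0846% in normoxia (SD, n = 3 each), a difference of 0.0152 percentage points (exact two-sided permutation p = 1, where 3 against 3 cannot go below 0.1). Without normoxia 2, which had the lowest share, the difference was -0.0332 points. Without the barcodes it shared with CIH 1, its share was 0.147% and the difference 0.00663 points.

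Set against microglia, macrophages were most frequent in CIH 3. There were 8.33, 7.35 and 19.8 macrophages per 100 microglia in CIH libraries, against 8.89, 4.02 and 9.39 in normoxia libraries. The CIH 3 ratio stood above the other 5, which overlapped between groups. As a share of both immune classes together, macrophages made up 10.4 ± 5.38% in CIH and 6.87 ± 2.61% in normoxia (SD, n = 3 each, exact two-sided permutation p = 0.6). CIH 3 had 131 microglia among 10643 kept nuclei. The counts were 120 of 4350 in CIH 1 and 136 of 4447 in CIH 2. In normoxia libraries they were 135 of 4698, 199 of 6615 and 277 of 9386. Microglia were thus fewest per kept nucleus in CIH 3, while its macrophage share of 0.244% lay within the normoxia range, 0.121 to 0.277%. Why its microglia were few was not tested.

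**Figure D1:**
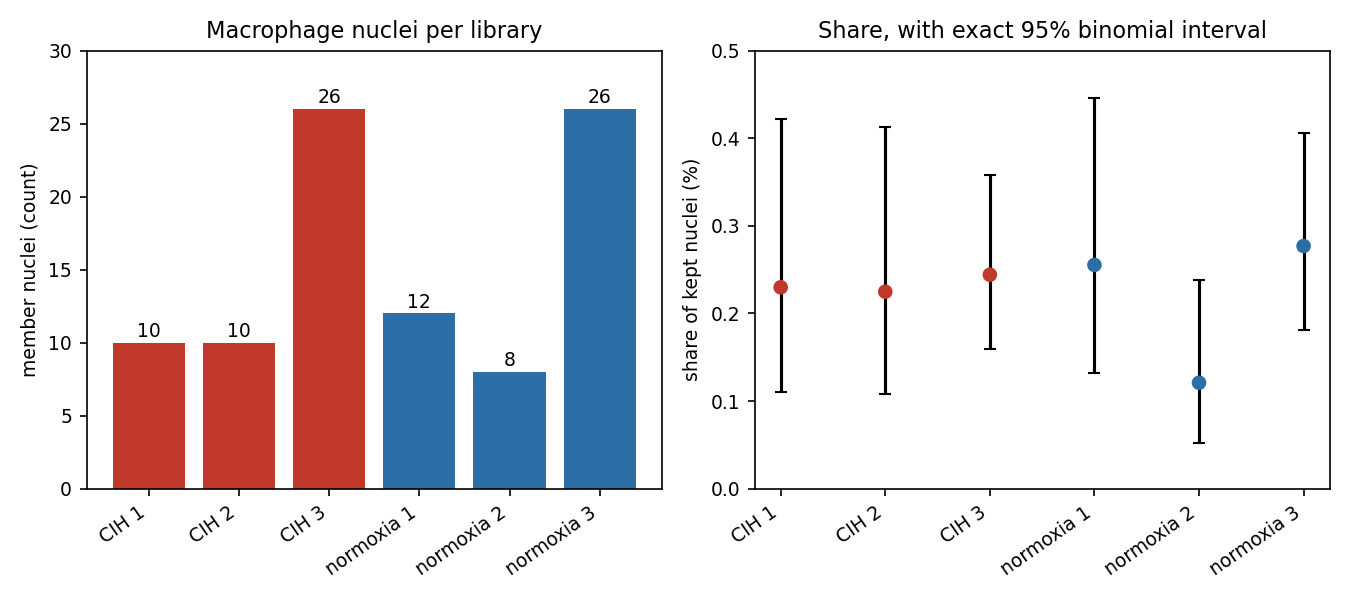
Left, number of macrophage nuclei (vertical axis) in each of the 3 CIH and 3 normoxia libraries, and right, their share of kept nuclei in percent with exact 95% binomial intervals. The shares overlap between the groups, and normoxia 2 is lowest with 8 nuclei and 0.121%.

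Macrophages differed from microglia of the same libraries in 698 of 5172 genes tested, among them the higher Dab2, Rbpj and Apoe and the lower Tgfbr1, Nav3 and Csmd3. Sums over the nuclei of each class in each library (12 sums) were compared with edgeR's quasi-likelihood test with library as a block, and adjusted p-values are Benjamini-Hochberg values. Of 5172 genes tested, 221 (4.27%) were higher and 477 (9.22%) lower in macrophages at an adjusted p under 0.05. The median log2 difference of all genes was -0.20. The macrophage sums held 140001 UMIs in all, and 1 UMI was worth 27.5 to 66.3 CPM in a library. Both classes were chosen by marker genes, and the rule genes of both were left out of the test. The count filter kept genes abundant in either class. A gene near 0 in one class therefore entered through the other, and could only come out higher in that other class. The shares over all genes, 4.27% higher and 9.22% lower, are to be set beside the list counts below.

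Dab2, a clathrin adaptor for cargo receptors at chromosome 15, 6299788 to 6440712 (GRCm38, GENCODE M21), showed the smallest p. Its lowest, median and highest sums were 447, 1620.0 and 2343 CPM in macrophages, against 4.78, 13.3 and 35 CPM in microglia (log2 difference 6.40, SE 0.29, adjusted p = 5.22e-101 by edgeR). Rbpj, the DNA-binding effector of Notch signalling at chromosome 5, 53466152 to 53657362, had 1539.8, 3601 and 5110.3 CPM in macrophages, against 124, 146 and 156 CPM in microglia (log2 difference 4.53, SE 0.22, adjusted p = 6.61e-93 by edgeR). The 6 macrophage sums lay above the 6 microglia sums for both genes, and 72 and 84 of 92 macrophages had a UMI of Dab2 and Rbpj. In microglia the share with Rbpj, 19.4%, was close to that in oligodendrocytes, 19.1%.

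Apoe, the lipid carrier apolipoprotein E at chromosome 7, 19696109 to 19699188, had 1623, 3383 and 7638 CPM in macrophages, against 103, 219 and 387 CPM in microglia (log2 difference 4.2, SE 0.21, adjusted p = 2.29e-83 by edgeR). It was found in 96.7% of macrophages, 21.7% of microglia and 22.5% of oligodendrocytes, at median depths of 1369.5, 1573 and 2771 UMIs in this order. Whether Apoe UMIs in microglia came from other cells was not tested. Aoah, an enzyme that removes acyl chains from bacterial lipopolysaccharide, had 146 UMIs in macrophages and 3 in microglia, a ratio of 643 per UMI counted (exact 95% counting interval 216 to 3154). Colec12, a collectin scavenger receptor, had 60.1, 648 and 1055 CPM in macrophages, against 0, 0 and 38.2 CPM in microglia (log2 difference 6.40, SE 0.45, adjusted p = 3.72e-42 by edgeR). No macrophage sum of these genes overlapped a microglia sum.

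The other leading genes were higher by 4.01 on the log2 scale for Itsn1, an endocytic scaffold, 3.93 for Psd3, an exchange factor for Arf6, 3.82 for Arhgap15, a Rac GTPase-activating protein, and 3.29 for Myo5a, an organelle motor (edgeR, Benjamini-Hochberg adjusted p from 3.45e-64 to 3.47e-42). F630028O10Rik had 85 UMIs in macrophages and 1 in microglia. The tetraspan gene Ms4a4a, named after its values were seen, had 56 UMIs in macrophages and 0 in microglia, at least 247-fold higher against a floor of 3 microglial UMIs over all libraries. The 20 leading genes, to which Ms4a4a does not belong, kept their call under every alternative that tested them.

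Among the genes lower in macrophages, Csmd3, a large protein with CUB and sushi domains, had 0, 130.1 and 339 CPM in macrophages, against 4372, 4957 and 5941 CPM in microglia (log2 difference -5.08, SE 0.28, adjusted p = 9.38e-69 by edgeR). Tgfbr1, the type I receptor of TGF-beta at chromosome 4, 47353222 to 47414931, had 85.6, 517 and 1022 CPM in macrophages, against 2829.6, 3114 and 3476 CPM in microglia (log2 difference -2.79, SE 0.23, adjusted p = 2.42e-30 by edgeR). The 6 macrophage sums were below the 6 microglia sums for both. A UMI of Tgfbr1 was found in 27 of 92 macrophages, against 932 of 998 microglia and 14.4% of oligodendrocytes. Lower too were the microtubule-binding Nav2 (-4.95 on the log2 scale) and Nav3 (-4.81), Plxdc2 (-4.00), Plcl1 (-3.74), the P-selectin ligand Selplg (-4.67), Fgf13 (-3.58), the flippase Atp8a2 (-4.25) and the calcium channel subunit Cacnb2 (-3.88).

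**Figure D2:**
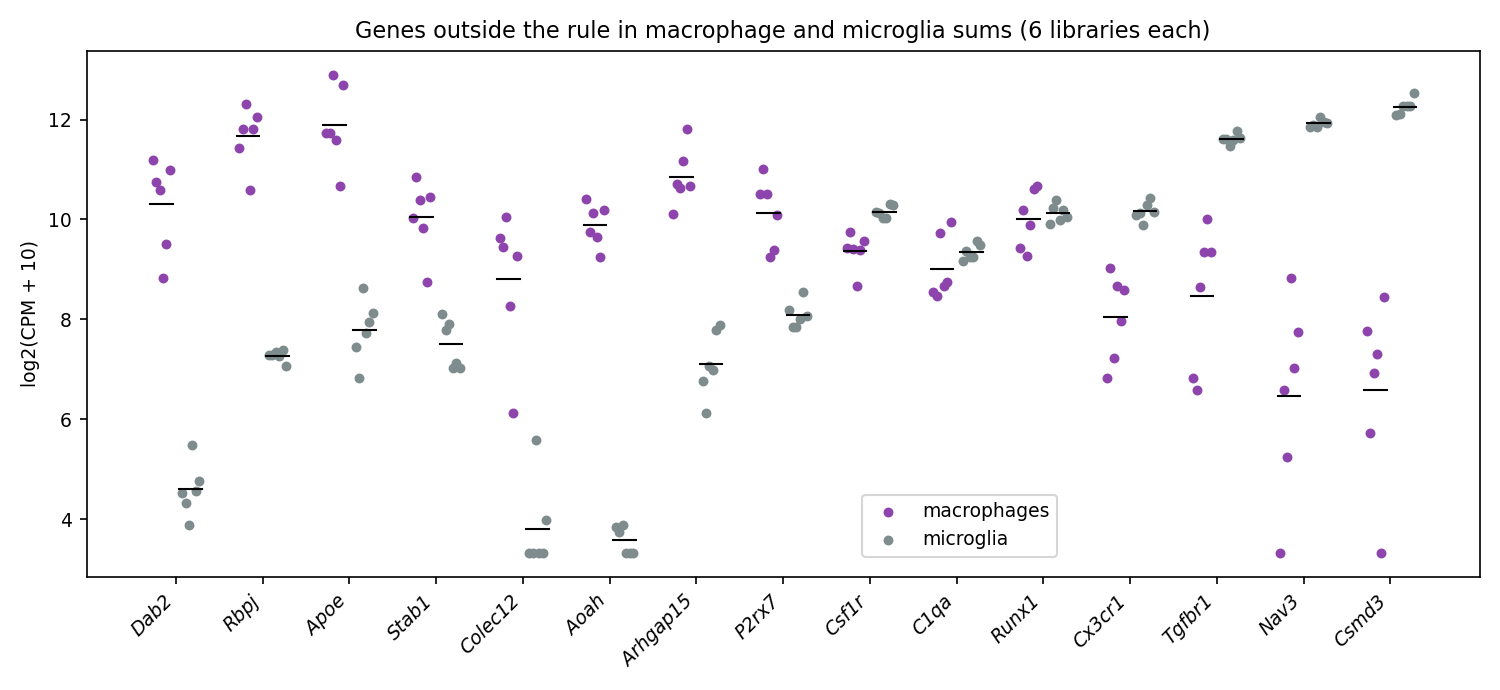
Level of 15 genes outside the rule, as log2(CPM + 10) on the vertical axis, in the 6 macrophage sums and the 6 microglia sums, where each point is a library and each bar the mean of its points. Dab2, Rbpj, Apoe, Stab1, Colec12, Aoah, Arhgap15 and P2rx7 lie higher in macrophages, C1qa and Runx1 overlap, and Csf1r, Cx3cr1, Tgfbr1, Nav3 and Csmd3 lie lower.

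Of 34 border macrophage genes outside the rule, 17 were tested, 11 were higher and 4 lower, with a median of 2.15 against -0.20 for all genes. Those near 0 in microglia, such as Colec12, passed the filter through macrophages and could only come out higher. Besides Dab2, Rbpj and Colec12, the higher ones included Stab1, a scavenger receptor for modified lipoprotein (log2 difference 2.70), Adgre1, the F4/80 antigen (2.15), Cd38, an NAD hydrolase (5.39), the transcription factor Maf (1.36) and the endothelin receptor Ednrb (2.85). Apobec1, a cytidine deaminase acting on RNA (1.40), was not called when the count filter was dropped. The lower ones included the transporter Slco2b1 (-1.12), the prostaglandin-degrading enzyme Hpgd (-1.09) and the adaptor Blnk (-0.89), and Blnk was not called with DESeq2 or without CIH 1. Cd209b and Cd209d were at 0 UMIs.

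Genes for uptake and for clearing dying cells moved in both directions. Of 21 scavenger and endocytic genes 13 were tested, 7 were higher and 1 lower, with a median of 1.74. The higher ones included Cd36, a receptor for oxidised lipids (5.34), the clathrin adaptor subunit Ap2a2 (1.74) and the inhibitory Fc receptor Fcgr2b (1.87), which was not called without CIH 3. Msr1, the class A scavenger receptor, had 41 UMIs in macrophages and 2 in microglia, a ratio of 271 (exact 95% counting interval 70.3 to 2311). Lrp1, an endocytic receptor for lipoproteins, was lower (-1.31). Of 15 clearance genes 10 were tested, 3 were higher and 6 lower, with a median of -1.31. The lipid exporter Abca1 (1.41), the receptor Axl (2.92) and its ligand Gas6 (2.21) were higher. Mertk, a related receptor for dying cells (-1.09), its ligand Pros1 (-1.63), the Rac activator Elmo1 (-1.52), the integrin subunits Itgb5 (-2.31) and Itgav (-1.54) were lower, as was Havcr2, with 3 UMIs in macrophages and 513 in microglia.

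Axl thus differed from microglia in the direction opposite to Mertk, although both encode receptors of the TAM family. Axl had 16 of 140001 UMIs in macrophages and 26 of 1849470 in microglia, and Mertk had 147 in macrophages and 3593 in microglia. Each call held under all alternatives that tested the gene.

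Lipid genes held 4 higher and 1 lower of 10 tested (20 listed, median 0.67), where the higher ones were Apoe, Myo5a, Cd36 and Abca1. Lysosomal genes were mixed, with 2 higher and 4 lower of 20 tested (22 listed, median 0.07). The proteases Ctsc (1.56) and Ctsb (1.51) were higher, and the lower ones included the protease inhibitor Cst3 (-1.96) and the proteases Lgmn (-1.56) and Ctsd (-1.28). Of 11 iron and heme genes tested (23 listed, median 0.16) the copper ferroxidase Cp (3.11) was higher. Blvrb and the ferritin heavy chain gene Fth1 were also called higher and Ireb2 lower, but each lost its call in some alternatives, and Fth1 in 8 of 15.

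Of 8 complement genes tested (16 listed, median -0.08), the anaphylatoxin receptor C5ar1 was higher (3.18) and the integrin Itgam lower (-2.47), while C1qa, C1qb and C1qc did not pass the threshold. Interferon-inducible genes held 5 higher and none lower of 10 tested (25 in the matrices, median 1.29). Over all genes 4.27% were higher and 9.22% lower. Ifi203 had 59 UMIs in macrophages and 0 in microglia, at least 259.8-fold higher against the same floor, and Ifi207 had 59 and 4 (log2 difference 6.97, SE 0.56, adjusted p = 3.08e-33 by edgeR). The calls of Parp14, Rnf213 and Trim30a were lost without normoxia 3, among other alternatives. Of 25 redox genes 12 were tested and 2 called, both higher (median 0.46), and Cybb, the catalytic subunit of the phagocyte NADPH oxidase, was higher with 37 UMIs in macrophages and 4 in microglia (log2 difference 6.64, SE 0.56, adjusted p = 6.53e-30 by edgeR). The other, Selenop, a selenium carrier, lost its call in 9 of 15 alternatives.

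Chemokine and cytokine RNAs were scarce. Of 28 listed genes 5 were tested, none was higher, and Nfkb1 and Tgfb1 were called lower (-0.91 and -1.20, lost in 4 and 9 of 15 alternatives). In all 92 macrophages 12 of these genes were at 0 UMIs, among them Ccl2, Il1b, Il6, Il10 and Tnf, where 0 of 140001 UMIs allows up to 21.4 CPM. Microglia were low as well, with a median of 0 CPM for Ccl2, Il1b and Il10, 8.66 CPM for Il6 and 4.10 CPM for Tnf. Pooled over libraries, the 28 genes came to 850 CPM in macrophages and 978 CPM in microglia. Of 22 growth factor and vessel genes 9 were tested (median -0.05), and the neuropilin Nrp1 (2.05), the EGF receptor Egfr (4.59) and Gas6 were higher. Plxna4, a semaphorin coreceptor, was lower (-1.31), and Sema4d and Tgfb1 were called lower but not in every alternative.

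Of 34 lineage transcription factors 22 were tested (median 0.10). Rbpj, Maf and Foxp1 (0.88) were higher, and Foxp1 was not called without the count filter. The lower factors included Ikzf1 (-1.78), Bach2 (-1.51), Mef2a (-0.83) and Irf8 (-1.63), and Irf5 was called lower but lost in 10 of 15 alternatives. Runx1, Zeb2 and Mef2c did not pass the threshold. Of 22 growth factor and cytokine receptors tested (26 listed, median -0.47) 1 was higher, Lifr, which was lost without CIH 3 or normoxia 3. Tgfbr1, Csf3r (-2.07), the interleukin-10 receptor Il10ra (-1.91), Acvr1 (-1.87) and Csf1r, the receptor on which macrophages depend (-0.76), were lower.

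Of 13 ion channel and transmitter receptor genes tested (22 listed, median -0.71), P2rx7, an ATP-gated channel, had 596, 1265 and 2055 CPM in macrophages, against 219, 253 and 362 CPM in microglia (log2 difference 2.19, SE 0.22, adjusted p = 2.53e-21 by edgeR). Ednrb and P2rx4 were also called higher, and P2rx4 was lost in 5 of 15 alternatives, including those without CIH 1, CIH 3 or normoxia 3. The fractalkine receptor Cx3cr1 was lower (-1.96), and the proton channel Hvcn1 was called lower but lost in 8 of 12. Of 9 glucocorticoid-responsive genes tested (20 listed, median 0.61), the glucocorticoid-induced Tsc22d3 (2.20) and Zbtb16 (3.19) were higher, while the receptor gene Nr3c1 did not pass. Of 10 hypoxia-responsive genes tested (27 in the matrices, median -0.44) none was higher, and Hk2 and Mxi1 were called lower but not in every alternative.

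Of 15 microglia genes outside the microglia rule that were tested, 13 were lower and none higher, with a median of -2.79, or -2.68 with genes at 0 set to their bound. Over all genes 9.22% were lower. The list held 3 tested genes at 0 in macrophages, Sall3, Slc2a5 and Ecscr, which passed the filter through microglia and could only come out lower. The count is therefore a description. Fcrls did not pass. Of 16 genes shared by myeloid cells that were tested, 1 was higher and 5 lower (median -0.22). Genes of the microglia rule were also found in macrophages, with P2ry12 in 40 of 92 macrophages, against 850 of 998 microglia and 4.21% of oligodendrocytes, and 10 macrophages met the microglia rule as well. Without these 10, the counts were 172 higher and 487 lower. With DESeq2 they were 217 and 283, so that 43.4% of its calls were higher in macrophages, against 31.7% with edgeR.

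Several of these calls were lost when a library was left out. By edgeR, the adjusted p was above 0.05 without CIH 1 for Blnk (0.0690), Fth1 (0.118), Hk2 (0.0730), Hvcn1 (0.0952), Ireb2 (0.0517), Irf5 (0.171), Nfkb1 (0.0620), P2rx4 (0.106), Selenop (0.210) and Tgfb1 (0.0908). Without CIH 2 it was so for Hvcn1 (0.146), Irf5 (0.145), Mxi1 (0.0942), Selenop (0.108), Tgfb1 (0.137) and Trim30a (0.539). Without CIH 3 it was so for Blvrb (0.115), Fcgr2b (0.0883), Ireb2 (0.0607), Lifr (0.115), Mxi1 (0.0875), P2rx4 (0.110), Selenop (0.239) and Sema4d (0.0888). Leaving out normoxia libraries had the same outcome, without normoxia 1 for Hvcn1 (0.0790), Irf5 (0.0772), Sema4d (0.0632) and Tgfb1 (0.0917), without normoxia 2 for Fth1 (0.808), Hvcn1 (0.0705), Irf5 (0.136), Mxi1 (0.0570), Nfkb1 (0.0705) and Tgfb1 (0.137) and without normoxia 3 for Fth1 (0.163), Hvcn1 (0.107), Irf5 (0.106), Lifr (0.0896), Mxi1 (0.124), Nfkb1 (0.0533), P2rx4 (0.126), Parp14 (0.260), Rnf213 (0.553), Selenop (0.214), Sema4d (0.0917), Tgfb1 (0.104) and Trim30a (0.645).

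**Figure D3:**
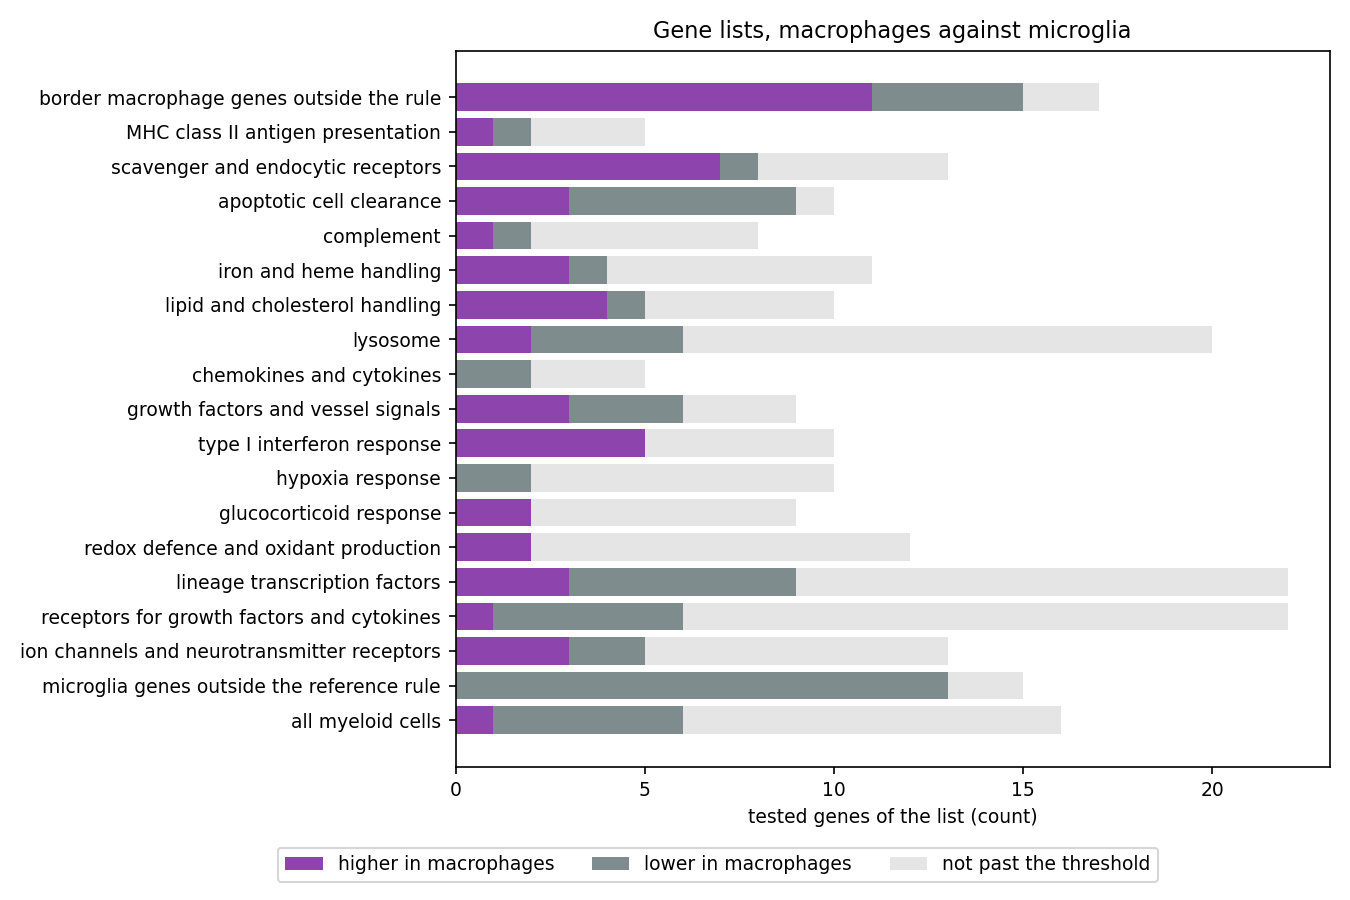
Number of tested genes of each list (horizontal axis) that were higher in macrophages than in microglia, lower, or not past an adjusted p of 0.05 by edgeR. Of 17 border macrophage genes 11 were higher and 4 lower, and of 15 microglia genes 13 were lower. Genes near 0 in either class could only come out higher in the other.

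Between CIH and normoxia, no gene of the macrophages passed the threshold. Of 775 genes tested by edgeR's quasi-likelihood test on the 6 sums, 0 (0%) had a Benjamini-Hochberg adjusted p under 0.05, and 41 had an unadjusted p under 0.05, where 38.8 would be so if p-values were uniform. DESeq2 called 0 genes as well, with 18 at an unadjusted p under 0.05. The values of the 2 groups did not overlap for 85 genes (11%), 43 of them higher in CIH, and the median log2 difference of all genes was 0.00. Random assignment of 3 against 3 libraries would separate the groups for a share of 0.1 of genes without ties. Lack of overlap in a single gene is therefore a description only. On simulated counts of 794 genes made from these sums the same test found 23.5% of 2-fold and 85.7% of 4-fold changes, so changes of around 2-fold would mostly be missed at this depth. The simulation changed 172 of the genes and gave all genes the same dispersion. Its share of 4-fold changes found need not hold for these data, where 4-fold changes may also be missed.

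The gene with the smallest p was Fkbp5, a glucocorticoid-induced chaperone of steroid receptors at chromosome 17, 28399094 to 28517527. It had 1134, 743 and 2008 CPM in CIH macrophages, against 273, 133 and 532 CPM in normoxia macrophages. Every CIH library was above every normoxia library, with CIH 3 highest. The log2 difference was 1.94 (SE 0.475, edgeR adjusted p = 0.466). Over the alternatives it ranged from 1.42 to 2.66 with adjusted p from 0.0352 to 0.969, and it was called without CIH 1 (adjusted p = 0.0420) and without the count filter (adjusted p = 0.0352). In microglia, on the scale of the class comparison, Fkbp5 had 556, 499 and 1095 CPM in CIH, against 253, 332 and 487 CPM in normoxia, again without overlap. Without the 10 macrophages that also met the microglia rule the log2 difference in macrophages was 2.00 (edgeR adjusted p = 0.787). The difference between the effects in macrophages and microglia was 0.94 on the log2 scale, SE 0.49, adjusted p = 1 by edgeR.

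Other glucocorticoid-responsive genes gave no call. Mt1, a metallothionein that binds zinc and copper, had 239, 278 and 385 CPM in CIH macrophages, against 0, 199 and 133 CPM in normoxia macrophages. Its groups did not overlap, but with 31 UMIs in all it was too low to be tested between the exposures. The leucine zipper gene Tsc22d3 had 298, 139 and 523 CPM in CIH macrophages, against 109, 464 and 233 CPM in normoxia macrophages. The receptor gene Nr3c1 had 298, 325 and 495 CPM in CIH macrophages, against 164, 729 and 532 CPM in normoxia macrophages. Of the 3 genes of this list tested, which include Fkbp5 itself, 2 had a positive difference, with a median of 0.44 against 0.00 for all genes.

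Tgfbr1 had 119, 92.8 and 385 CPM in CIH macrophages, against 711, 1126 and 632 CPM in normoxia macrophages. The CIH values were all lower than the normoxia values, by a log2 difference of -1.80 (SE 0.514, edgeR adjusted p = 0.819), and without CIH 3 the adjusted p was 0.0392. Tgfbr1 is abundant in microglia, where CIH libraries had 3109, 3119 and 2829.6 CPM and normoxia libraries 3092, 3476 and 3154 CPM. Of the 10 macrophages that also met the microglia rule, CIH libraries held 2, 1 and 0 and normoxia libraries 4, 1 and 2. Without these nuclei Tgfbr1 had 164, 104 and 362 CPM in CIH macrophages, against 99.5, 1336 and 431 CPM in normoxia macrophages. The groups then overlapped and the log2 difference was -1.21 (edgeR adjusted p = 0.946).

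RNA of microglia genes in the macrophage sums separated the groups only with Tgfbr1 included. Over the 18 microglia genes outside the rule it came to 1242, 1505 and 1474 CPM in CIH, against 2762, 2339 and 2011 CPM in normoxia, without overlap. Over the 17 of them other than Tgfbr1 it came to 1123, 1411 and 1112 CPM in CIH, against 2029, 1134 and 1405 CPM in normoxia, which overlap. The 5 microglia rule genes came to 591, 611 and 595 CPM in CIH, against 1635, 425 and 1022 CPM in normoxia, which also overlap. The part of this RNA in the differences of single genes was not tested.

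Lair1, an inhibitory collagen receptor of leukocytes, had 59.7, 139 and 82.5 CPM in CIH macrophages, against 437, 331 and 399 CPM in normoxia macrophages (log2 difference -2.0, SE 0.64, adjusted p = 0.819 by edgeR). Ikzf1, a transcription factor of blood cells, had 59.7, 325 and 220.0 CPM in CIH macrophages, against 547, 530.0 and 599 CPM in normoxia macrophages (log2 difference -1.39, SE 0.49, adjusted p = 0.819 by edgeR). For both the groups did not overlap, and both genes were more abundant in microglia than in macrophages. Without the 10 nuclei meeting both rules Lair1 had 81.8, 156 and 77.6 CPM in CIH macrophages, against 199, 393 and 323 CPM in normoxia macrophages, and was too low to be tested. Ikzf1 then had 81.8, 312 and 207 CPM in CIH macrophages, against 497, 629 and 610.3 CPM in normoxia macrophages. Neither gene overlapped between the groups.

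P2rx7 had 1671, 2228 and 1430.0 CPM in CIH macrophages, against 656, 729 and 1065 CPM in normoxia macrophages (log2 difference 1.07, SE 0.36, adjusted p = 0.819 by edgeR). The CIH libraries were all above the normoxia libraries, also without the 10 nuclei (1718, 2185 and 1345 CPM in CIH, against 1194, 786 and 1005 CPM in normoxia). In microglia it had 280.2, 219 and 219.9 CPM in CIH, against 249, 362 and 257 CPM in normoxia, which overlap. The difference between the effects was 1.30 on the log2 scale, SE 0.42, adjusted p = 1 by edgeR.

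Negr1, a cell adhesion molecule of neurons, had 119, 278 and 165 CPM in CIH macrophages, against 656, 596 and 499 CPM in normoxia macrophages (log2 difference -1.59, SE 0.48, adjusted p = 0.819 by edgeR). Without the 10 nuclei meeting both rules it had 164, 312 and 155 CPM in CIH macrophages, against 99.5, 707 and 539 CPM in normoxia macrophages, which overlap. Gm31243 had 119, 278 and 55 CPM in CIH macrophages, against 383, 398 and 599 CPM in normoxia macrophages. Bmp2k, a kinase of endocytosis, had 179, 139 and 275 CPM in CIH macrophages, against 711, 795 and 299.5 CPM in normoxia macrophages. With all nuclei the groups did not overlap for these 3 genes, whose adjusted p was 0.819 by edgeR. Gsk3b, a kinase of glycogen and Wnt signalling, had 358, 696 and 660.0 CPM in CIH macrophages, against 109, 398 and 199.7 CPM in normoxia macrophages, which overlap at CIH 1 and normoxia 2. Without the 10 nuclei Gm31243 had 81.8, 260.2 and 51.7 CPM in CIH, against 597, 472 and 610.3 CPM in normoxia. Bmp2k then had 245, 156 and 259 CPM in CIH, against 597, 943 and 323 CPM in normoxia, and Gsk3b 491, 728 and 621 CPM in CIH, against 99.5, 472 and 215 CPM in normoxia. None of these 3 genes overlapped between the groups without the 10 nuclei.

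The mitochondrially encoded mt-Co1 had 955, 278 and 1568 CPM in CIH macrophages, against 273, 265 and 466 CPM in normoxia macrophages, with CIH 2 within the normoxia range (log2 difference 1.45, SE 0.53, adjusted p = 0.819 by edgeR). Without the 10 nuclei meeting both rules it had 327, 312 and 1474 CPM in CIH macrophages, against 398, 314 and 431 CPM in normoxia macrophages, so that only CIH 3 stood above the normoxia range. All 5 mitochondrial RNAs tested had a positive difference, with a median of 0.60, and none passed the threshold. The median mitochondrial share of the macrophages was 0.213, 0.220 and 0.591% in CIH libraries, against 0.173, 0.134 and 0.222% in normoxia libraries. In nuclei these RNAs come from outside the nucleus, and their part in other differences was not tested.

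Among genes that defined macrophages against microglia, Colec12 had 895, 743 and 1045 CPM in CIH macrophages, against 328, 66.3 and 599 CPM in normoxia macrophages, without overlap (log2 difference 1.28, SE 0.49, adjusted p = 0.819 by edgeR). Dab2 had 2685, 1856 and 1513 CPM in CIH macrophages, against 492, 795 and 1997 CPM in normoxia macrophages, and Stab1 had 1193, 1996 and 1320.0 CPM in CIH macrophages, against 984, 464 and 1365 CPM in normoxia macrophages. Both overlapped between the groups. Apobec1 had 298, 139 and 275 CPM in CIH macrophages, against 601, 994 and 299.5 CPM in normoxia macrophages, where every CIH value was lower (log2 difference -1.29, SE 0.52, adjusted p = 0.827 by edgeR). Of the 10 border macrophage genes tested here 6 had a positive difference (median 0.27), and of 4 scavenger genes 3 did (median 0.70), beside a median of 0.00 for all genes and 0 calls in either list.

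**Figure D4:**
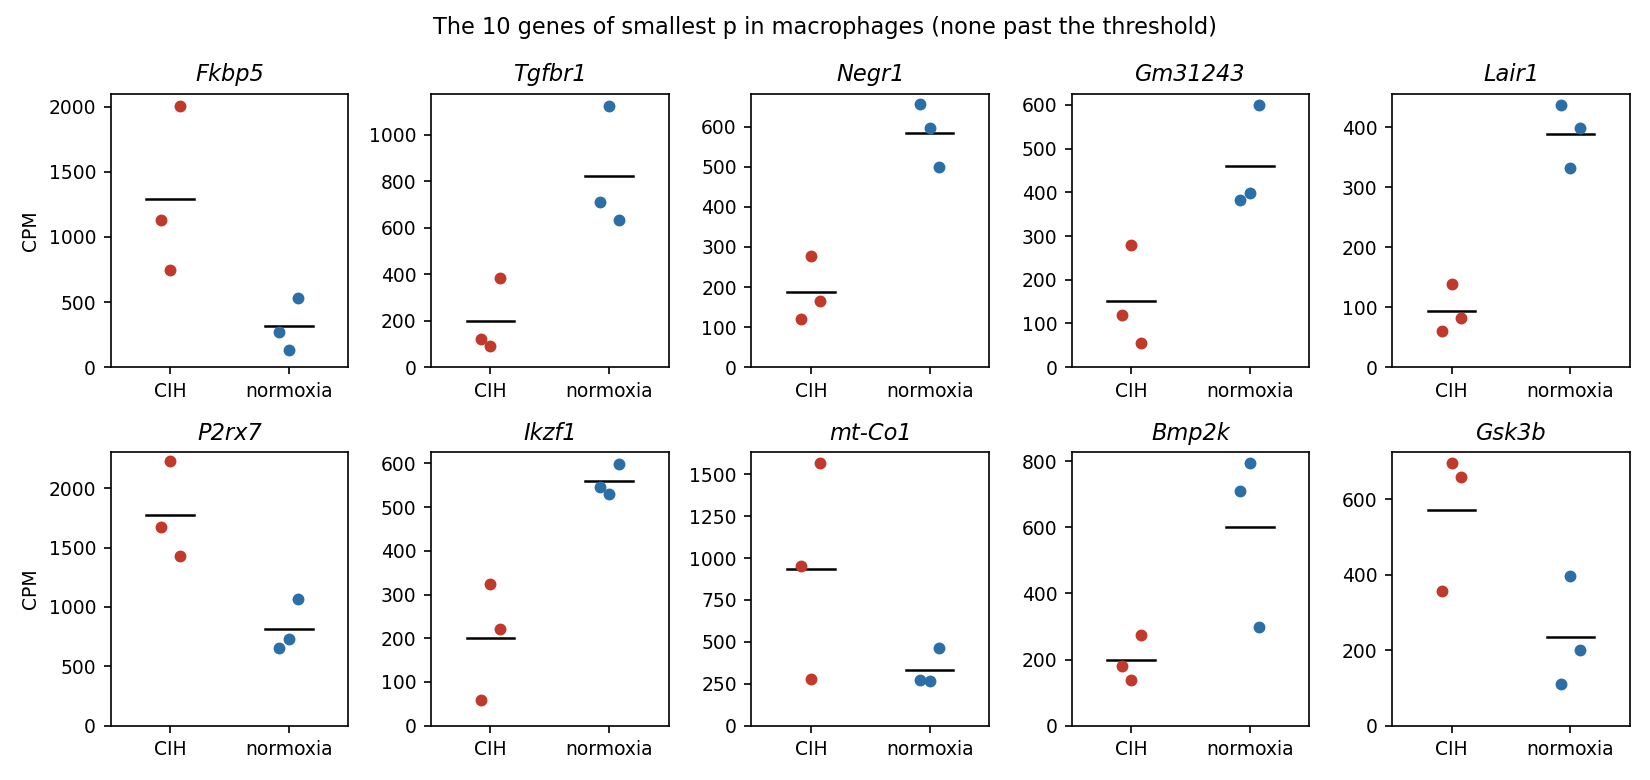
CPM (vertical axes, from 0) in the macrophage sums of the 3 CIH and 3 normoxia libraries for the 10 genes of smallest p, where each point is a library and each bar the group mean. Fkbp5 and P2rx7 are higher and Tgfbr1, Negr1, Gm31243, Lair1, Ikzf1 and Bmp2k lower in every CIH library than in every normoxia library, mt-Co1 and Gsk3b overlap, and no gene passed the adjusted threshold.

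The other lists gave no call either. All 4 interferon-inducible genes tested had a negative difference (median -1.19), but their groups overlapped. Ifi203 had 119, 510.5 and 165 CPM in CIH macrophages, against 492, 398 and 832 CPM in normoxia macrophages. The whole list summed to 1478, 4279.7 and 1189.9 CPM in CIH, against 1635, 2056 and 6194 CPM in normoxia. Of 14 transcription factors tested 4 were positive (median -0.23), of 14 genes of all myeloid cells 3 (median -0.47), of 9 lysosomal genes 3 (median -0.37), of 8 receptors 5 (median 0.23), of 6 clearance genes 3 (median 0.01) and of 4 complement genes 2 (median 0.10). No hypoxia-responsive gene was abundant enough to be tested. The 27 genes together came to 1064, 1411 and 1449 CPM in CIH, against 902, 709 and 989.7 CPM in normoxia, without overlap and untested. In microglia their sum ran from 1436 to 1673 CPM in CIH and from 1436 to 1646 CPM in normoxia. In oligodendrocytes it ran from 895 to 976 CPM in CIH and from 879 to 912 CPM in normoxia. The groups overlapped in both of these classes. Among the 35 lists, the only other sums without overlap were those of the microglia genes outside the rule, given above, and of the lists named next. These too were untested. Random assignment of 3 against 3 libraries would separate a share of 0.1 of sums without ties, so such lack of overlap is a description only. Ion channel and transmitter receptor genes came to 2838, 4656 and 2949 CPM in CIH, against 2762, 2410 and 2778 CPM in normoxia. Growth factor and cytokine receptors came to 4376, 4468 and 4398 CPM in CIH, against 5355, 6168 and 4885 CPM in normoxia. Genes of all myeloid cells came to 9224, 12698 and 9364 CPM in CIH, against 14036, 18148 and 12707 CPM in normoxia.

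The difference between the CIH effect in macrophages and in microglia was tested directly. Of the 5172 genes 0 (0%) passed an adjusted p under 0.05 by edgeR, and 208 had an unadjusted p under 0.05. For Negr1 the difference was -2.44 on the log2 scale, SE 0.57, adjusted p = 0.0591. In microglia Negr1 had 659.7, 459 and 196 CPM in CIH, against 167, 184 and 288 CPM in normoxia. Mast4, a kinase named after its values were seen, had 179, 46.4 and 605 CPM in CIH macrophages, against 0, 0 and 33.3 CPM in normoxia macrophages, and 189.7, 143 and 249 CPM in CIH microglia, against 202, 184 and 363 CPM in normoxia microglia. Its difference was 4.58 on the log2 scale, SE 1.08, adjusted p = 0.0591, and 22 of its 27 macrophage UMIs lay in CIH 3. On simulated counts of 5238 genes this test found 0% of 2-fold and 10.6% of 4-fold differences.

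No macrophage had UMIs of both MHC class II genes and Lyve1. At least 1 UMI of Cd74, H2-Aa, H2-Ab1 or H2-Eb1 was found in 16 of 92 macrophages (17.4%), against 9 of 998 microglia (0.902%) and 31 of 9887 oligodendrocytes (0.314%). Of 5 antigen presentation genes tested against microglia (16 listed, median 0.14), Cd74, the invariant chain that escorts MHC class II, was higher (log2 difference 5.16, SE 0.58, adjusted p = 4.51e-17 by edgeR) and the protease gene Ctss lower (-0.95). At least 2 such UMIs were found in 11 macrophages, 1, 1 and 2 of them in CIH libraries and 2, 4 and 1 in normoxia libraries. Lyve1 was found in 16 of the 92 macrophages (17.4%), and in 0 of the 16 with any MHC class II UMI, which allows a share of up to 18.8% with a Lyve1 UMI. The Lyve1 share of all macrophages lies below this bound, so the count cannot show that these RNAs exclude each other. Lyve1 was one of the genes that chose the macrophages, and at a median of 1369.5 UMIs a nucleus without a UMI may still hold the RNA, so this is a description. Of the 92 macrophages 65 had neither Lyve1 nor 2 MHC class II UMIs.

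The profiles of these nuclei are given as a description, since they were chosen after their values were seen. The 11 nuclei with at least 2 MHC class II UMIs had a median depth of 1646 UMIs, the 16 with Lyve1 1263 and the other 65 1345. Their median marker sums were 6, 13.5 and 11. Pooled over each set in the same order, Dab2 stood at 606, 1472 and 1802 CPM, Apoe at 2272, 6062 and 5324 CPM, Colec12 at 50.5, 1039 and 711 CPM and P2rx7 at 202, 1516 and 1483 CPM. Arhgap15 stood at 3686, 1559 and 1668 CPM and Rbpj at 3989, 3767 and 3821 CPM. Ccr2, the receptor by which monocytes leave the marrow, was found in 4 macrophages, 3 of them among the 11. Flt3, a receptor of dendritic cell precursors, was at 0 in all.

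Tgfbr1 stood at 1313 CPM in the MHC class II nuclei, 260 CPM in the Lyve1 nuclei and 360.4 CPM in the rest. Of the 67 Tgfbr1 UMIs 26 lay in the 11 MHC class II nuclei, 7 of which were in normoxia libraries. Without these 11 nuclei no gene differed between CIH and normoxia (0 of 676 by edgeR, 36 at an unadjusted p under 0.05). Tgfbr1 then had a log2 difference of -2.52 (edgeR adjusted p = 0.0853) and Fkbp5 1.77 (edgeR adjusted p = 0.329).

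**Figure D5:**
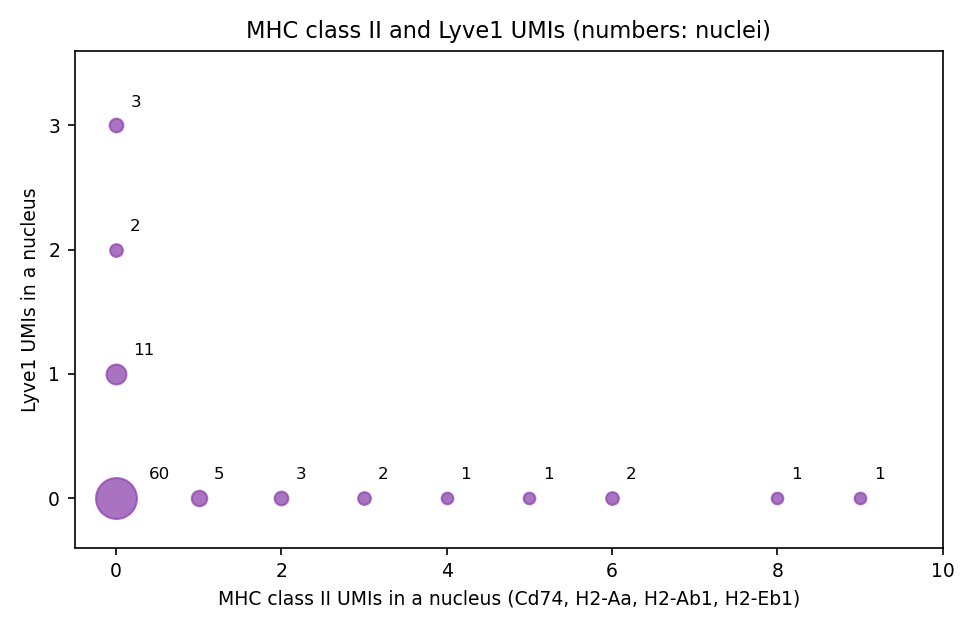
Macrophages by their UMIs of 4 MHC class II genes (horizontal axis) and of Lyve1 (vertical axis), with the number of nuclei printed at each position and shown by point size. Of 92 nuclei 60 lie at 0 on both axes and none has both RNAs.

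RNA of other cell types was found in every library. Neuron genes summed to 2543, 1975 and 2173 CPM in CIH macrophages, against 2198, 2765 and 3416 CPM in normoxia macrophages. Pooled over libraries they came to 2529 CPM in macrophages, 2866 CPM in microglia and 1741 CPM in oligodendrocytes. Oligodendrocyte genes summed to 1656, 1129 and 2432 CPM in CIH macrophages, against 1635, 3190.1 and 1756 CPM in normoxia macrophages. The neuron list includes Meg3, which was limited in the choice of each class, and the oligodendrocyte list includes Mog, which was limited in macrophages. These sums therefore depend in part on how the nuclei were chosen and are a description. Fibroblast genes summed to 0, 0 and 698 CPM in CIH, against 0, 0 and 223 CPM in normoxia, with Dcn, Col1a2, Col3a1 and Lum at 0. Mural genes summed to 0, 94.1 and 517 CPM in CIH, against 0, 0 and 63.9 CPM in normoxia. CIH 3 was highest for both of these lists, which were near 0 in most other libraries.

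The same library stood out for Ptgds, the prostaglandin D synthase of glia and meninges. Macrophages had 2, 7 and 442 UMIs in CIH libraries, against 8, 8 and 58 in normoxia libraries, or 119, 325 and 12155 CPM in CIH, against 437, 530.0 and 1930.3 CPM in normoxia. In CIH 3 a UMI was found in 22 of 26 macrophages, and a single nucleus had 117. Microglia had 232, 213 and 876 CPM in CIH, against 300.1, 294 and 794 CPM in normoxia, and oligodendrocytes 1332, 1183 and 1854 CPM in CIH, against 1550.4, 1499 and 1989 CPM in normoxia. The log2 difference in macrophages was 2.08 (edgeR adjusted p = 0.827), and it was called without CIH 1 or without the count filter. Ptgds was named after its values were seen, and the source of its RNA in CIH 3 was not tested.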

How the data were processed

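The deposited matrices hold raw UMI counts per gene and barcode for 32285 genes, made by the authors. Per the file headers they come from Cell Ranger 6.1.2, while the submitters' processing notes list Cell Ranger 3.1.0, Seurat 4.0 and mm10. Whether intronic reads were counted is not given in the sources used here. Counts of the chosen nuclei were summed per library, scaled by TMM and filtered with filterByExpr at a minimum count of 5. They were tested with edgeR 4.0.16 (glmQLFit, glmQLFTest, limma 3.58.1, R 4.3.3) at a Benjamini-Hochberg adjusted p under 0.05. DESeq2 1.42.0 was an alternative. The tests were CIH against normoxia in 6 macrophage sums (10 genes of the rule left out), and macrophages against microglia with their interaction with exposure in 12 sums (15 rule genes left out). CPM values of single genes use these scaled library sizes. Summed lists, values without a subset of nuclei and values of pooled nuclei are per 1000000 UMIs of that sum.

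The macrophage rule, the 35 gene lists and the alternatives were chosen with earlier results of these data known. Named genes were the 10 of smallest p for CIH, as no gene was called, up to 10 higher and 10 lower than in microglia by smallest p without overlap between the 6 sums of each class, and up to 4 members of each list by mean CPM. Other named genes are the called members of a list, or were chosen after their values were seen. Some genes are not reported here. Positions were taken from GENCODE M21 (GRCm38). Doublets were not removed in the main values. As an alternative the nuclei of highest Scrublet score (scanpy 1.11.5, 0.8% of barcodes per 1000) were removed, none of them a macrophage. On simulated counts the class comparison recovered 26.1% of the 2-fold and 80.9% of the 4-fold changes put into 5181 genes, with 9 false calls among 105, and the comparison of exposures made 2 false calls among 99. With nothing changed it called 0 of 802 genes. Kept nuclei had a median of 2918 UMIs, and macrophage sums held 14106 to 38658 UMIs per library. Intervals (95%, exact) and the floor of 3 counts cover counting error only. Further steps used Python 3.11.15 with scipy 1.17.1, pandas 2.3.3, numpy 2.4.6 and matplotlib 3.10.9.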

Additional observations from a re-analysis of the deposited data

How the results depend on the processing

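The share difference of 0.0152 points kept its sign under the other filters, thresholds and denominators run, and leaving out libraries gave -0.0332 to 0.0448, negative without normoxia 2. Under a filter of 1000 genes and 1% mitochondrial UMIs per nucleus it was 0.0905 points (0.185% in CIH and 0.0946% in normoxia, exact permutation p = 0.2). The count for CIH against normoxia was 0 under 9 other settings, 3 with no count filter (Fkbp5, Ptgds and Trpm3), and 0 to 3 when libraries were left out, where Fkbp5, Ptgds and Trpm3 were called without CIH 1 and Kcnd2 and Tgfbr1 without CIH 3. Against microglia it was 698, 1071 with no count filter (230 higher and 841 lower), 500 with DESeq2, and 608 to 668 with a library left out. Fth1 turned to -0.0196 when the 10 nuclei meeting both rules were removed. Of 111 named or list genes called there, 23 lost the call in at least 1 alternative. The difference of effects, 0, was 2 with RLE size factors and 2 with a minimum count of 10 (Mast4 and Negr1), 1 with a marker sum of at least 5 (Negr1) and 0 to 2 with a library left out (Mast4 and Plcl1 without CIH 1, Mast4 without CIH 2, Negr1 without CIH 3). The cause of these shifts was not tested beyond the change in genes, nuclei or libraries that each setting makes. Removing the 11 MHC class II nuclei or the shared barcodes, both chosen after seeing the data, changed no count by over 1.5 times.

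The main test did not pair the samples by replicate number. Correlations of deviations were 0.059, -0.001 and 0.078 between equal numbers, against -0.112 to 0.039 between unequal numbers. Values this small, from sums over few nuclei, cannot show whether the numbers pair the samples. A replicate block gave 0 genes for CIH against normoxia, with 35 at an unadjusted p under 0.05.

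The sums rest on 92 nuclei in 6 libraries. In normoxia 2, 8 nuclei carry the whole sum, and 1 UMI there is worth 66.3 CPM.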

Other observations

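Further genes known from resident macrophages were seen in few nuclei. Timd4, a receptor for phosphatidylserine that marks long-lived resident macrophages of several mouse tissues, was found in 11 of 92 macrophages (12%), 0 of 998 microglia and 1 of 9887 oligodendrocytes. Igf1, a growth factor, was found in 19 macrophages (20.7%), 6 microglia (0.601%) and 31 oligodendrocytes (0.314%). The lectin genes Clec10a and Mgl2 were found in 14 and 8 macrophages, 1 and 0 microglia and 4 oligodendrocytes each. Of the 14 macrophages with Clec10a none was among the 11 with at least 2 MHC class II UMIs, 1 had Lyve1 and 13 had neither. Of the 11 with Timd4, 1 had at least 2 MHC class II UMIs. These counts are descriptions of nuclei, at median depths of 1369.5 UMIs in macrophages, 1573 in microglia and 2771 in oligodendrocytes.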
